A study of Mus musculus with 18 samples.

Results

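The comparison followed one edited clone of C2C12, an established mouse myoblast cell line, from proliferating myoblasts to multinucleated myotubes. It compared the 6 of the 18 libraries of the series that are labelled with the Dlk1-Dio3 overexpressor genotype: 3 of myoblasts and 3 of myotubes taken on day 3 of differentiation. The libraries were chosen by their labels and the matching columns of the count table, not by any measured value, and all 17912 genes with enough counts to test are covered. The overexpressor is a single clone. Myoblasts were transfected with pairs of guide RNAs and Cas9 aimed at the proximal regulatory region of Meg3, sorted for the EGFP carried by the plasmid and grown from single cells, so the edit is shared by both groups compared. The deleted bases are not given in the sources used here. Differentiation was started at confluence by replacing growth medium with medium containing horse serum. The control line was a sorted population of C2C12 cells that received the pX458 vector alone. The line labelled knockout was another edited clone, and each of these lines has 3 myoblast and 3 myotube libraries. The labels do not say whether the triplicates came from separate cultures, so p-values measure only the spread between these samples, which may be technical. That spread was estimated over all 6 groups. The filter on low counts and the scaling also used all 18 libraries, so the other lines had a part in every call below. The coefficient of variation between replicates was 19.4% in overexpressor myotubes and 11.5% in overexpressor myoblasts, against 4.27% to 12.5% in the other groups. A difference between the lines cannot be told apart from a difference between clones.

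The 6 libraries held between 41544358 and 79140702 assigned read counts, and the 3 myotube libraries were deeper than the 3 myoblast libraries. Values below are counts per 1000000 (CPM) after scaling to effective library size, given for replicates A, B and C in that order, and changes are log2 fold changes of myotubes over myoblasts with their standard errors (SE). A gene is called higher or lower at a Benjamini-Hochberg adjusted p under 0.05 in edgeR's quasi-likelihood test over all genes. Meg3 (ENSMUSG00000021268, chromosome 12, 109541001 to 109571726, GRCm38), the gene the edit was aimed at, gave 107, 149 and 143 CPM in the overexpressor myoblasts and 77.5, 97.1 and 103 CPM in the myotubes. It had 0 counts in every library of the control line and of the line labelled knockout, so the level of Meg3 does not separate those lines from each other. Myotube replicate C stood apart from replicates A and B. Of 13116 genes with a mean of at least 1 CPM, 561 were at least 2-fold above the mean of the other replicates in C, compared with 0 in A and 9 in B, and these 561 genes had a median GC content of 39.8% against 49.7% for all of those genes. The part of replicate C in the results was not tested beyond the fits without it, which are given where they change a call.

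Skeletal muscle differentiation is the textbook case of a switch from proliferation to a contractile program. Myoblasts carry the determination factors Myod1 and Myf5, leave the cell cycle, switch on Myog and Mef2 factors, fuse through the membrane proteins Mymk and Mymx and then assemble sarcomeres, calcium stores and the postsynaptic apparatus. MyoD family proteins bind DNA at E-boxes, whereas many cell cycle genes carry CCAAT boxes and the element TTTGAA, a cell cycle homology region bound by the DREAM and MuvB complexes in their promoters.

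Sequences before the start sites of genes from both arms of this switch are printed to show what such promoters look like. Of the first set, Chrna1, Chrng and Chrne encode the alpha, gamma and epsilon subunits of the muscle acetylcholine receptor, Mylpf a fast myosin light chain and Cav3 the muscle caveolin. Each sequence is the 160 bases before the start site in RefSeq's GRCm38.p6 table, 5′ to 3′ on the gene's strand, with the letters CAGCTG, an E-box that reads the same on both strands, in capitals. These genes were chosen because they hold the letters.
Chrna1 (chr2:73580339-73580498, minus strand): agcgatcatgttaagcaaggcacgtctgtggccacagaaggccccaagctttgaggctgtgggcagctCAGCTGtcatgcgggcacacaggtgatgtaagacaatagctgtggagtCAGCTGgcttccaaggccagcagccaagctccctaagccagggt
Chrng (chr1:87205651-87205810, plus strand): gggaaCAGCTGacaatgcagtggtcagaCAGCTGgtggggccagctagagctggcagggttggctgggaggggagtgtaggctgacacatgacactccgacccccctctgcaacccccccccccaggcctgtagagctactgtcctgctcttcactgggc
Chrne (chr11:70619195-70619354, minus strand): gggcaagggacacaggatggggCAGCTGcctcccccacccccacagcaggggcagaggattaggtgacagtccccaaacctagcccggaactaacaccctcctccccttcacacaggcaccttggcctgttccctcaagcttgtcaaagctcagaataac
Mylpf (chr7:127211448-127211607, plus strand): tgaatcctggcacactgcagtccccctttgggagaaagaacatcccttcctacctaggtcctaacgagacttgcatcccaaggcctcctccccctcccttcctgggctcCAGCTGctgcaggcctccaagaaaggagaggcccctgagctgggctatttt
Cav3 (chr6:112459345-112459504, plus strand): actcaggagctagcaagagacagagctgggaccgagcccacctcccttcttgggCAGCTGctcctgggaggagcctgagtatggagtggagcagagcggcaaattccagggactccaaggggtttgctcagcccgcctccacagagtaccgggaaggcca
The matches began 92 and 44 bases before the start site of Chrna1, 155 and 132 bases before that of Chrng, 138 before that of Chrne, 51 before that of Mylpf and 106 before that of Cav3. CAGCTG was found in the 250 bases before the start in 13% of the 32851 promoters of the table, in 18.7% of the 2125 promoters of genes called higher by at least 2-fold and in 13.5% of the 2146 promoters of genes called lower by at least 2-fold. Among the lists described below it was found in 8 of 20 promoters of thin filament genes and in 4 of 10 of acetylcholine receptor and postsynaptic genes. It was found in 2 of 41 promoters of DNA replication genes and in 4 of 35 (11.4%) of mitosis and spindle genes, against 12.9% of promoters of genes tested.

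The second set shows Ccnb2, Cdk1 and Cdc20, which encode a mitotic cyclin, the mitotic kinase and an activator of the anaphase-promoting complex, with CCAAT or its reverse ATTGG, and TTTGAA or its reverse TTCAAA, in capitals.
Ccnb2 (chr9:70421555-70421714, minus strand): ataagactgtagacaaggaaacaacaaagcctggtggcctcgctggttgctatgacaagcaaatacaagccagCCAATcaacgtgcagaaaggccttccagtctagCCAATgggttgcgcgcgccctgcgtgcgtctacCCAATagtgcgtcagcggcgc
Cdk1 (chr10:69352913-69353072, minus strand): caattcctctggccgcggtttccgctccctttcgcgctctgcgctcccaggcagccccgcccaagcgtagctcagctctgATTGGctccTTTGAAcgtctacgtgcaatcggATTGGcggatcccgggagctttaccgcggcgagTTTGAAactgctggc
Cdc20 (chr4:118437344-118437503, minus strand): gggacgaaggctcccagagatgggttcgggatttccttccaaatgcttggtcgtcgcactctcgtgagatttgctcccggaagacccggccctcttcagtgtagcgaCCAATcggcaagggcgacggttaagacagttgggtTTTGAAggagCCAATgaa
Either strand of CCAAT began 87, 54 and 21 bases before the start site of Ccnb2, 80 and 48 before that of Cdk1 and 53 and 8 before that of Cdc20. TTTGAA was found 71 and 15 bases before the start of Cdk1 and 18 before that of Cdc20. CCAAT was found in 33.8% of all promoters and 34.9% of those of genes tested, in 26 of 35 promoters of mitosis and spindle genes and in 24 of 41 of DNA replication genes. TTTGAA was found in 16% of all promoters but in 10.8% of those of genes tested, in 13 of 35 of mitosis and spindle genes and in 6 of 41 (14.6%) of DNA replication genes, a share that lies between these 2 backgrounds. A match is a description of the letters, not a site shown to be bound, and the promoters of one list share no test here.

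Differentiation changed the transcriptome of the clone broadly. Of 17912 genes tested, 5341 (29.8%) were called higher in myotubes and 5905 (33.0%) lower, 62.8% in all. With only the libraries of the clone in the fit, 9535 genes were called (4372 higher, 5163 lower), against 11246 in the fit to all libraries of the series. The sizes were unequal in the 2 directions: 2592 genes (14.5%) were called higher by at least 2-fold and 2504 (14.0%) lower by at least 2-fold, yet 352 rose by at least 6 on the log2 scale and 9 fell by as much. Of all calls, 6150 (54.7%) were smaller than 2-fold. Genes higher by at least 2-fold took 4.94% to 5.32% of the counts in the myoblast libraries and 23.4% to 24.3% in the myotube libraries, and genes lower by at least 2-fold went from a range of 18.9% to 19.2% to one of 5.96% to 6.73%. The values of the 2 stages did not overlap in 11248 genes (62.8%). The median log2 fold change of all genes tested was -0.023, the background for every list median below, and other scalings put it at 0.054 (DESeq2 size factors) and -0.079 (library totals). The shares of all genes called, 29.8% higher and 33.0% lower, are the background for every count of list members below. Because the tested genes include some that passed the filter on low counts only in the stage where they were high, the list counts below are descriptions of the members tested, and the text gives how many were not.

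**Figure D1:**
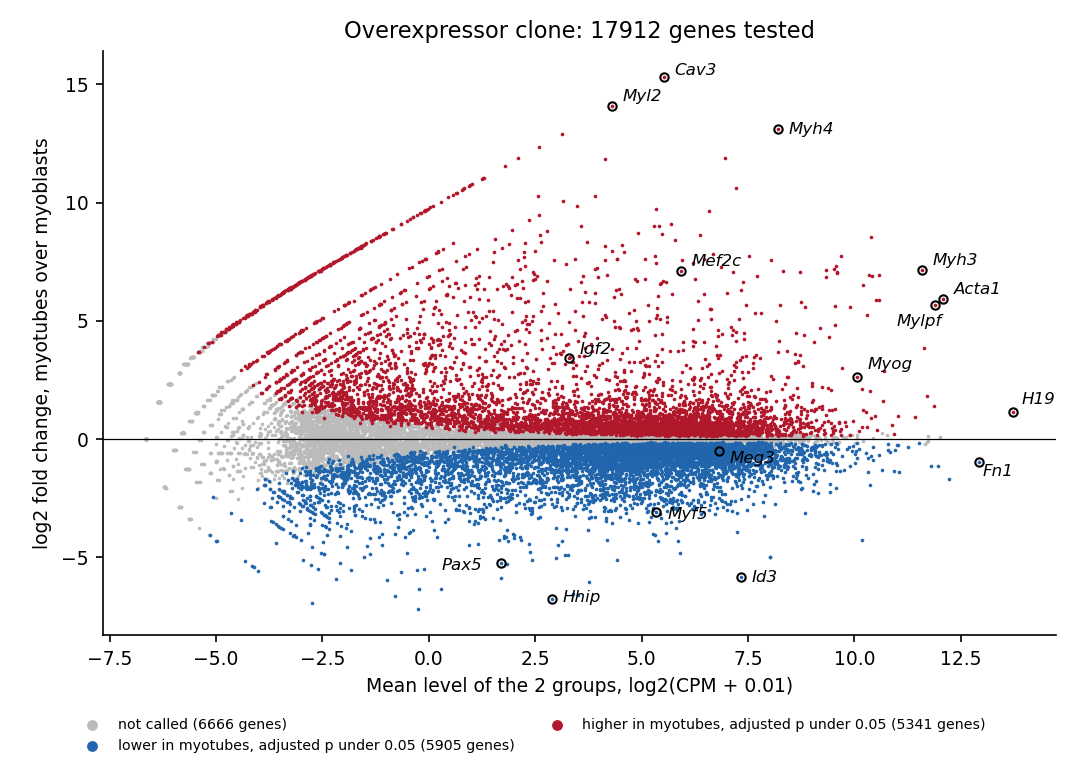
Each point is 1 of the 17912 genes tested, with its level, the log2 of the mean CPM of the 2 stages plus 0.01, on the horizontal axis and its log2 fold change of myotubes over myoblasts on the vertical axis, and genes called higher or lower are coloured. The points along the upper edge are genes with 0 or almost 0 counts in myoblasts, whose fitted fold change is no measure of size, and falls reach -7.17 at most.

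The genes with the highest fold changes were muscle structural genes that were silent or almost silent in the myoblasts. Cav3 (ENSMUSG00000062694, chromosome 6, 112459505 to 112472872, GRCm38), which shapes the muscle plasma membrane, had 0 counts in all 3 myoblast libraries and 106, 74.5 and 95.5 CPM in the myotubes. Against the level of 3 counts per library, this was at least 1426-fold higher. Myl2, the regulatory light chain of slow and cardiac myosin, also had 0 counts in the 3 myoblast libraries and reached 40.4, 38.6 and 39.6 CPM, at least 611-fold higher. Both genes were therefore present in every myotube library and detected in no myoblast library. Myh4, the fast type 2B myosin heavy chain, was at 0.0599, 0 and 0.139 CPM in myoblasts, within a few counts of 0, and at 576, 521 and 673 CPM in myotubes. Genes outside the sarcomere shared this pattern: Ighm, an immunoglobulin heavy chain constant region, was at 0 counts in the myoblasts and at 18.1, 16.9 and 17.9 CPM in the myotubes (at least 273-fold), and Ptgds, a prostaglandin D synthase, at 0 counts and then 10.2, 6.8 and 8.67 CPM (at least 132-fold). In all, 93 genes had at most 3 counts in every myoblast library and at least 1 CPM in every myotube library, and 4 had at most 3 counts in every myotube library and at least 1 CPM in every myoblast library.

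The largest gains in level, rather than in fold, belonged to H19 and to sarcomere genes. H19 (ENSMUSG00000000031, chromosome 7, 142575529 to 142578143), an imprinted long noncoding RNA, was at 8526, 7636 and 9045 CPM in myoblasts and at 19306, 20676 and 16448 CPM in myotubes (log2 fold change 1.16 ± 0.084, adjusted p = 7.71e-10). It was already among the most abundant RNAs of the myoblasts, and the groups did not overlap. Skeletal alpha-actin, Acta1 (ENSMUSG00000031972, chromosome 8, 123891769 to 123894751), was at 141, 94.4 and 183 CPM and then 8992, 9372 and 7403 CPM (log2 fold change 5.94 ± 0.28, adjusted p = 6.13e-11). Embryonic myosin heavy chain, Myh3 (ENSMUSG00000020908, chromosome 11, 67078300 to 67102291), was at 37.1, 32.8 and 57.7 CPM and then 6111, 5721 and 6467 CPM (log2 fold change 7.16 ± 0.25, adjusted p = 1.01e-12). These chains of actin and myosin were low in every myoblast library and among the highest RNAs of every myotube library. The fast light chain Mylpf, whose promoter is printed above, was at 147 ± 36.2 CPM (SD, n = 3) and then 7466 ± 489 CPM. The largest losses in level were of cytoskeletal and matrix genes and of insulin-like growth factor binding proteins. Fibronectin, Fn1 (ENSMUSG00000026193, chromosome 1, 71585520 to 71653200), was at 9913, 10259 and 10771 CPM in myoblasts and at 5531, 5391 and 4792 CPM in myotubes (log2 fold change -0.98 ± 0.079, adjusted p = 3.58e-09). The intermediate filament gene Vim fell from 7323 ± 275 to 2289 ± 324 CPM, and cytoplasmic actin, Actb, from 4916 ± 294 to 2209 ± 357 CPM, with log2 fold changes of -1.68 and -1.15. No library of one stage overlapped the other stage in any of these genes.

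The largest falls by fold were of genes with various roles. Hhip (ENSMUSG00000064325, chromosome 8, 79965851 to 80058006), an inhibitor of hedgehog ligands, was at 13.4, 18 and 13 CPM in myoblasts and 0.119, 0.125 and 0.153 CPM in myotubes (log2 fold change -6.78 ± 0.25, adjusted p = 9.59e-14). Selp, the adhesion receptor P-selectin, had a log2 fold change of -6.58, Krt13, a keratin, one of -6.56, Nefl, the neurofilament light chain, one of -6.04 and Has1, a hyaluronan synthase, one of -5.12. These genes were at moderate levels in the myoblasts: Selp averaged 22.4 CPM, Krt13 20.6, Nefl 27 and Has1 41.4.

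**Figure D2:**
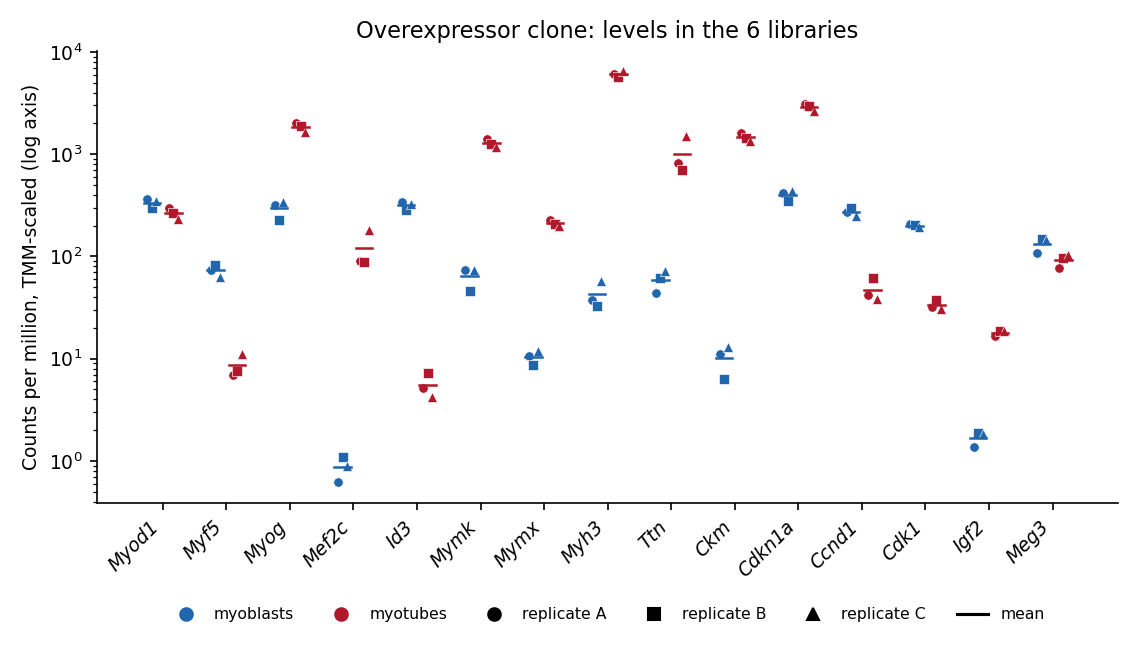
Points give CPM on a log axis in each of the 6 overexpressor libraries for genes of the main groups, with myoblasts in blue, myotubes in red and bars at the means. Myod1 is nearly level, Myog and Mymk rise, Id3 falls, and Mef2c, Myh3 and Ckm lie far higher in myotubes than in myoblasts.

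Among the myogenic regulators, the determination factors and the differentiation factors went different ways. Myod1 (ENSMUSG00000009471, chromosome 7, 46376474 to 46379099), a determination factor, was at 364, 295 and 349.7 CPM in myoblasts and 299, 264 and 234 CPM in myotubes (log2 fold change -0.34 ± 0.096, adjusted p = 0.00502). This was a small fall, and myotube replicate A lay just above the lowest myoblast library. It was not called without myotube replicate C (-0.21, adjusted p = 0.0751) or in the DESeq2 Wald test (-0.25, adjusted p = 0.0543). Myf5 (ENSMUSG00000000435, chromosome 10, 107482908 to 107486134), the other determination factor, was at 73.4, 82 and 63.6 CPM and then 6.98, 7.58 and 11.2 CPM (log2 fold change -3.09 ± 0.19, adjusted p = 3.84e-10), so most of it was lost in each replicate. Myogenin, Myog (ENSMUSG00000026459, chromosome 1, 134289989 to 134292548), which commits cells to differentiation, was at 321, 226 and 344 CPM in myoblasts, so it was expressed before the medium was changed, and at 2007, 1899 and 1659.9 CPM in myotubes (log2 fold change 2.64 ± 0.14, adjusted p = 5.19e-11). Mef2c, its partner at muscle genes, was at 0.619, 1.1 and 0.901 CPM and then 89.9, 87.7 and 183 CPM (log2 fold change 7.11 ± 0.36, adjusted p = 1.5e-10). Replicate C held about the sum of the other myotube replicates for Mef2c, and the log2 fold change without it was 6.72. Myf6, or MRF4, the late member of the MyoD family, was not called: it was at 0.719, 0.733 and 0.555 CPM and then 0.609, 0.375 and 0.695 CPM (log2 fold change -0.27 ± 0.21, adjusted p = 0.272), and the ranges overlapped. Mef2a and Mef2d rose by 1.48 and 1.32 on the log2 scale and Smyd1, a muscle methyltransferase, by 4.51. Of the 21 myogenic transcription factors listed, 6 were higher, 10 lower and 5 not called, with a median log2 fold change of -0.34. The 10 that fell include the transcriptional coactivator Eya1 (log2 fold change -1.18).

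Most of the progenitor and reserve cell factors tested fell, and most strongly among them Id3. Id proteins sequester the E-protein partners of MyoD. Id3 (ENSMUSG00000007872, chromosome 4, 136143497 to 136145755) was at 341, 283 and 325 CPM in myoblasts and at 5.12, 7.32 and 4.18 CPM in myotubes (log2 fold change -5.83 ± 0.17, adjusted p = 2.33e-14). Id1 was at 118, 105 and 124 CPM and then 17.6, 18 and 17.4 CPM (log2 fold change -2.71 ± 0.075, adjusted p = 2.33e-15), and Id2 fell by 2.99-fold. The satellite cell factor Pax7 was at 31.7, 30 and 31.6 CPM and then 4.81, 3.94 and 3.75 CPM (log2 fold change -2.9 ± 0.10, adjusted p = 3.39e-14), with no overlap in any of these genes. Spry1, an inhibitor of growth factor signalling that marks quiescent satellite cells, went the other way, from 3.57 ± 0.354 to 75.9 ± 2.83 CPM (log2 fold change 4.41 ± 0.096, adjusted p = 2.14e-16). Of 19 progenitor and reserve cell factors tested of 21 listed, 4 were higher, 12 lower and 3 not called (median log2 fold change -1.02), and the 2 not tested had 0 counts in all 6 libraries. Besides Spry1, the members called higher were Megf10 (log2 fold change 1.35), Sdc4 (0.89) and Zeb1 (0.77).

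Both fusogens of muscle rose. Myomaker, Mymk (ENSMUSG00000009214, chromosome 2, 27061636 to 27072179), was at 73.9, 45.7 and 73 CPM in myoblasts and at 1421, 1247 and 1188 CPM in myotubes (log2 fold change 4.32 ± 0.19, adjusted p = 1.11e-11). Myomixer, Mymx (ENSMUSG00000079471, chromosome 17, 45600971 to 45602102), was at 10.7, 8.61 and 11.8 CPM and then 226, 209 and 196 CPM (log2 fold change 4.34 ± 0.14, adjusted p = 2.23e-14). The 2 genes thus rose by almost the same factor, and in each myotube replicate both were above every myoblast library. Dysf, the membrane repair protein dysferlin, rose by 4.1 on the log2 scale and Bin1, which bends membrane into T-tubules, by 2.03. M-cadherin, Cdh15, the adhesion molecule of myoblasts, was at 623, 508 and 637 CPM and then 492, 459 and 418 CPM (log2 fold change -0.37 ± 0.084, adjusted p = 0.000831), and Cd9, a tetraspanin, fell by 3.41-fold. Of 24 fusion and adhesion genes tested of 27 listed, 13 were higher, 7 lower and 4 not called. Their median log2 fold change was 0.60. It was 0.365 with genes at 3 counts or fewer in every library of a stage placed at their lower bound.

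The thick filament list rose almost entirely. Of 26 genes, all tested, 24 were higher, 1 was lower and 1 was not called, with a median log2 fold change of 7.07. Their summed level was 532.6, 523.7 and 637.9 CPM in the myoblast libraries and 28430, 25910 and 27520 CPM in the myotube libraries. The 6 myosin heavy chain genes of skeletal muscle named here rose: besides Myh3 and Myh4, the perinatal chain Myh8 was at 0.319, 0.194 and 0.462 CPM and then 118, 76.3 and 137 CPM (log2 fold change 8.41 ± 0.29, adjusted p = 1.05e-12), the type 2X chain Myh1 at 7.76 and then 1653 CPM on average, the type 2A chain Myh2 at 0.196 and 47.8 CPM and the slow chain Myh7 at 2.74 and 527 CPM. Per kilobase of exons in the gene model, the myotube means were 1007 CPM for embryonic Myh3, 9.4 for perinatal Myh8, 98 for Myh4, 260.2 for Myh1, 61.1 for Myh7 and 6.69 for Myh2. Per length, the embryonic chain was therefore the most abundant of these 6 in myotubes, and type 2X was the highest of the adult chains. Myosin heavy chains are near-identical in stretches, as are the muscle actins, and how reads that match several of them were counted is not given in the sources used here, so the split between them is uncertain. The member called lower was Smyd2, a methyltransferase (log2 fold change -0.73), and the chaperone gene Hsp90aa1, with -0.74, was not called (adjusted p = 0.0736). It was called lower without myotube replicate C (-1.33, adjusted p = 0.000422) and without myoblast replicate A (-0.94, adjusted p = 0.0408).

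Thin filament genes followed. Of 20 tested of 21 listed, 19 were higher and 1, the tropomyosin gene Tpm3 (log2 fold change -0.19), was lower. Tpm3 was not called with DESeq2 size factors (-0.10, adjusted p = 0.143), with no filter (-0.15, adjusted p = 0.0738), with only the groups compared (adjusted p = 0.0583) or in the DESeq2 Wald test (adjusted p = 0.111). The list had a median log2 fold change of 5.58 and summed levels of 2003, 1780 and 2023 CPM in myoblasts and 39540, 38230 and 36090 CPM in myotubes. Cardiac actin, Actc1, the fetal sarcomeric actin, was at 28.4, 18.9 and 28.8 CPM and then 2461, 2381 and 2115 CPM (log2 fold change 6.51 ± 0.17, adjusted p = 2.94e-15). The troponin T genes of slow, cardiac and fast muscle rose by similar factors: Tnnt1 by 5.59, Tnnt2 by 5.88 and Tnnt3 by 6.91 on the log2 scale. The order of their levels in myotubes depended on the measure. Cardiac Tnnt2 was at 3042, 2877 and 3113 CPM, Tnnt3 at 2756, 2664 and 2726 and Tnnt1 at 1976, 1808 and 1803. Per kilobase of all exons in the gene model, Tnnt2 averaged 388 CPM, Tnnt1 845 and Tnnt3 1715. That length need not be the length of the transcript expressed, so the order of the isoforms is uncertain. Nebulin, Neb, which spans the thin filament, was at 17, 17.2 and 22.8 CPM and then 753, 686 and 1260.0 CPM (log2 fold change 5.57 ± 0.28, adjusted p = 1.24e-10), with replicate C well above the others.

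Of 33 Z-disc, titin and linkage genes, all tested, 32 were higher and 1 was not called (Synm, log2 fold change -0.36, adjusted p = 0.0643), with a median log2 fold change of 3.47. Synm was called lower without myotube replicate C (-0.49, adjusted p = 0.0174). Titin, Ttn, the elastic filament of the sarcomere, was at 44.2, 61 and 71.6 CPM in myoblasts and 817, 699.5 and 1517 CPM in myotubes (log2 fold change 4.1 ± 0.31, adjusted p = 1.49e-08). Replicate C was about 2-fold above the other myotube replicates, and without it the log2 fold change was 3.73. Actn2, the Z-disc alpha-actinin, rose by 9.65 and Ankrd2, a stretch-responsive titin ligand, by 9.09 on the log2 scale. Desmin, Des, the muscle intermediate filament, already averaged 2102 ± 225 CPM in myoblasts and reached 5460.0 ± 527 CPM (log2 fold change 1.38 ± 0.11, adjusted p = 1.99e-09). Of 16 genes of the dystrophin-glycoprotein complex, which links this cytoskeleton to the matrix, 11 were higher and 5 lower (median 0.456). Its sarcoglycan genes were split: Sgca rose by 1.2 on the log2 scale, whereas Sgce, which is also expressed outside muscle, fell by 2.55-fold. Dystrophin, Dmd, went from 0, 0.0216 and 0.0231 CPM, near the floor of detection, to 1.08, 0.888 and 1.92 CPM and was called higher.

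**Figure D3:**
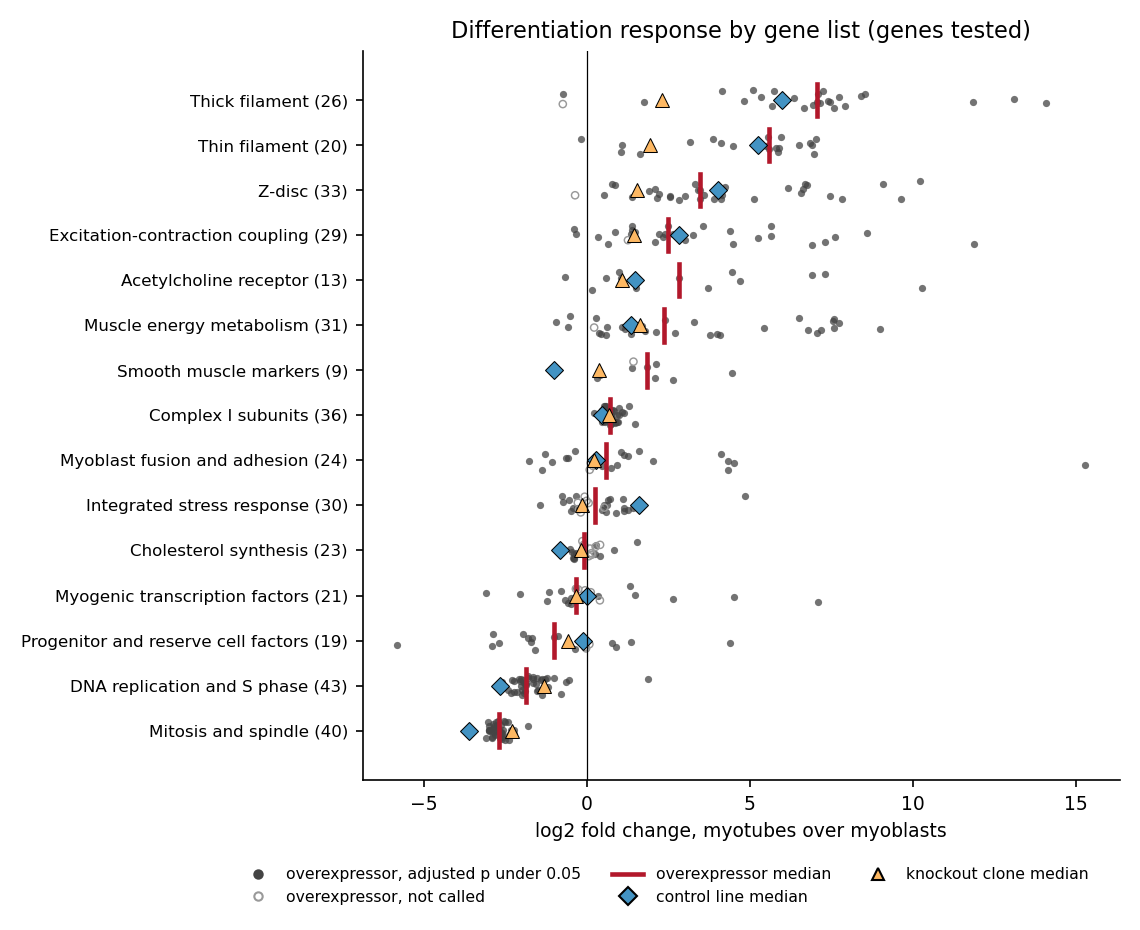
Each row is a gene list, each grey point the log2 fold change of 1 member in the overexpressor clone (filled where called, open where not), with the clone's median as a red bar and the medians of the same list in the control line (diamond) and in the line labelled knockout (triangle). Sarcomere lists lie far to the right, replication and mitosis lists lie left of 0, and the knockout medians of the sarcomere lists lie nearest to 0.

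Genes of calcium handling rose with few exceptions. Of 29 excitation-contraction coupling genes tested of 30 listed, 26 were higher, 2 lower and 1 not called (median log2 fold change 2.49). The calcium release channel gene Ryr1 was at 37.3, 35.7 and 50.6 CPM and then 936, 753 and 883 CPM (log2 fold change 4.38 ± 0.15, adjusted p = 1.51e-13). The fast calcium pump gene Atp2a1 was at 65.9, 45.7 and 82.8 CPM and then 2608, 2354 and 2461 CPM (log2 fold change 5.25 ± 0.20, adjusted p = 2.8e-12), so pump and channel rose in parallel. Calsequestrin 1, Casq1, the calcium buffer of the fast muscle store, was within a few counts of 0 in the myoblasts and at 279, 202 and 268 CPM in myotubes. Scn4a, the muscle sodium channel, rose by 8.61 and Cacna1s, the voltage sensor, by 6.9. Mrln, a micropeptide gene whose product inhibits the calcium pump, rose less, from 5.14 ± 1.03 to 13.2 ± 1.49 CPM (log2 fold change 1.36 ± 0.13, adjusted p = 5.5e-08). The members called lower were the widely expressed Fkbp1a (-0.39) and Itpr1 (-0.34).

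At the postsynaptic side the receptor subunits rose by very different factors. Of 13 acetylcholine receptor and postsynaptic genes, 12 were higher and 1 was lower (median log2 fold change 2.84). Chrna1, already abundant in myoblasts, was at 1012, 885 and 992 CPM and then 1985, 1873 and 1874 CPM (log2 fold change 0.99 ± 0.067, adjusted p = 2.98e-10). Chrng, the subunit of the fetal receptor, was at 45.4, 33 and 52.3 CPM and then 1196, 1091 and 1126 CPM (log2 fold change 4.71 ± 0.16, adjusted p = 2.2e-13). Chrne, which replaces it in the adult receptor, was at 0, 0.0216 and 0 CPM, 0 or a few counts, and then 13.6, 7.62 and 14.2 CPM. Chrnd rose by 3.72, Chrnb1 by 1.05, the receptor-clustering kinase gene Musk by 1.52 and the scaffold gene Rapsn by 0.58 on the log2 scale. Colq, which anchors acetylcholinesterase, rose by 6.91, and the enzyme's own gene Ache was at 0.0599, 0.0216 and 0.0924 CPM, a few counts, and then 11.8, 6.93 and 9.61 CPM. The member called lower was Agrn, the clustering signal (-0.68).

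Muscle energy metabolism genes rose. Of 31 tested of 32 listed, 27 were higher, 3 lower and 1 not called, with a median log2 fold change of 2.38. The median was 1.78 with genes at 3 counts or fewer in every library of a stage at their lower bound. Ckm (ENSMUSG00000030399, chromosome 7, 19404776 to 19422841), muscle creatine kinase, was at 11.2, 6.3 and 12.9 CPM and then 1612, 1428 and 1341 CPM (log2 fold change 7.17 ± 0.26, adjusted p = 2.42e-12). The myoglobin gene Mb rose by 7.06 and Pygm, muscle glycogen phosphorylase, by 7.73. Ppargc1a, a coactivator of mitochondrial genes, was at 0.279, 0.474 and 0.162 CPM and then 0.802, 0.313 and 1.0 CPM (log2 fold change 1.18 ± 0.44, adjusted p = 0.0266), which is a low level in both stages. The call of Ppargc1a was lost without either of myoblast replicates A and C or either of myotube replicates A and C, with log2 fold changes of 0.87 to 1.11, and also with no filter (adjusted p = 0.0661) and with only the groups compared (adjusted p = 0.0896). The members called lower were Ampd3 (-0.96), an AMP deaminase of nonmuscle cells, Nrf1 (-0.58) and the lactate dehydrogenase gene Ldha (-0.51).

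Nuclear genes of the respiratory chain rose by small amounts, and the muscle isoforms of 3 subunits rose far more. All 36 complex I subunit genes were higher, with a median log2 fold change of 0.695 and a highest value of 1.48 for Ndufs4. Of 39 subunit genes of complexes II to V, 33 were higher, 2 lower and 4 not called (median 0.604). The 2 that fell were Cox6a1 and Cox8a, the ubiquitous isoforms of subunits whose muscle isoforms, Cox6a2 and Cox8b, rose. Per kilobase of exons, Cox6a2 went from 0.227 to 115 CPM and Cox6a1 from 257 to 204 CPM, with log2 fold changes of 9.0 and -0.34. Cox8b went from 0.516 to 97.3 and Cox8a from 268 to 219 CPM per kilobase (log2 fold changes 7.59 and -0.29). For the third pair, Cox7a1 went from 0.792 to 10.9 and Cox7a2 from 99.5 to 169 CPM per kilobase, with both isoforms higher (log2 fold changes 3.79 and 0.77). In all 3 pairs the ubiquitous isoform remained the more abundant per kilobase on day 3. The falls of Cox6a1 and Cox8a were small and were not called without myotube replicate C (-0.19 and -0.17, adjusted p = 0.101 and 0.0942), and that of Cox6a1 also missed the threshold without myoblast replicate A (adjusted p = 0.0502) and with only the groups compared (adjusted p = 0.0527). Neither was called with DESeq2 size factors (-0.25 and -0.20, adjusted p = 0.0576 and 0.0664) or in the DESeq2 Wald test (adjusted p = 0.0671 and 0.0793). Mitochondrially encoded genes were not analysed here.

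**Figure D4:**
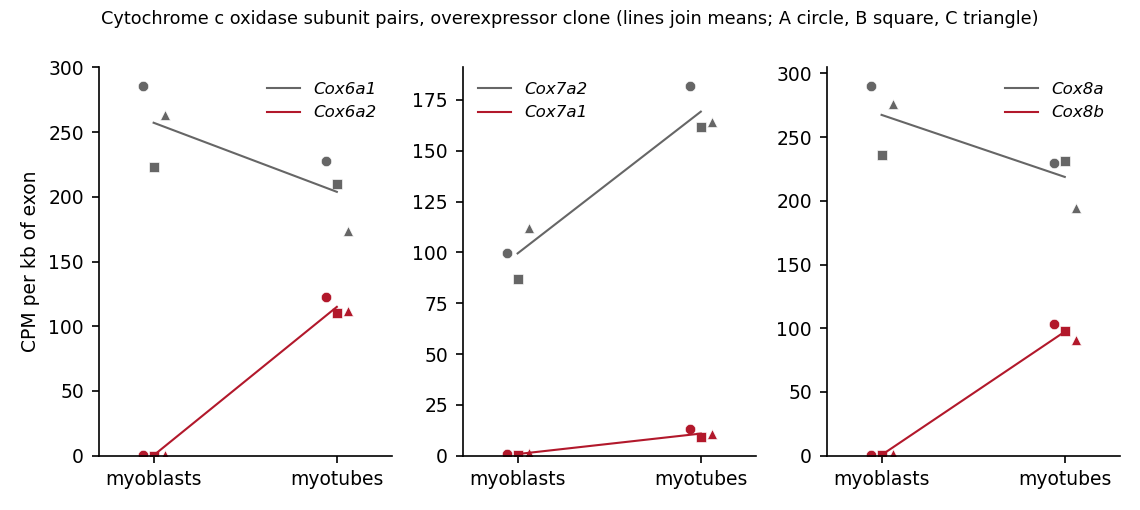
Levels in CPM per kilobase of exons are drawn for each of the 6 libraries for the muscle and the ubiquitous isoforms of the Cox6a, Cox7a and Cox8 subunits. All 3 muscle isoforms (red) climb from near 0 and stay below their ubiquitous partners (grey), and Cox7a1 climbs least.

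Cell cycle genes fell in every replicate. All 40 mitosis and spindle genes were lower, with a median log2 fold change of -2.70, and 42 of 43 DNA replication and S phase genes were lower and 1 higher (median -1.88). The summed level of the mitosis genes was 5030, 5533 and 4791 CPM in myoblasts and 725, 823.1 and 814.3 CPM in myotubes. That of the replication genes was 3831, 3858 and 3653 CPM and then 1265, 1396 and 1223 CPM. Transcripts of both lists were thus reduced and still present on day 3. In these bulk libraries, fewer cells in cycle and less RNA per cell cannot be told apart. Cdk1 (ENSMUSG00000019942, chromosome 10, 69335146 to 69352938) was at 206, 201 and 192 CPM and then 32.1, 37.8 and 30.3 CPM (log2 fold change -2.58 ± 0.11, adjusted p = 3.42e-13). The proliferation marker Mki67 was at 178, 284 and 184 CPM and then 25.8, 31.7 and 45.4 CPM (log2 fold change -2.65 ± 0.27, adjusted p = 6.13e-07), with myoblast replicate B above the other myoblasts. Ccnb2 fell by 7.62-fold, Cdc20 by 8.01-fold and the spindle motor gene Kif20a by 8.66-fold. Mcm5, a subunit of the replicative helicase, was at 178, 162 and 177 CPM and then 31.3, 38.7 and 25.6 CPM (log2 fold change -2.43 ± 0.20, adjusted p = 3.16e-08). The replication gene that rose was the transcription factor gene E2f2 (1.88).

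Regulators of cell cycle exit moved in both directions. Of 23 tested of 25 listed, 9 were higher, 11 lower and 3 not called (median log2 fold change -0.105). The inhibitor gene Cdkn1a (ENSMUSG00000023067, chromosome 17, 29090976 to 29100727), encoding p21, was at 416, 349 and 438 CPM and then 3088, 2982 and 2672 CPM (log2 fold change 2.86 ± 0.11, adjusted p = 1e-13). Cdkn1c, encoding p57, was at 0.539, 0.194 and 0.647 CPM and then 12.5, 1.01 and 11.2 CPM (log2 fold change 4.15 ± 0.72, adjusted p = 0.000136), so replicate B held far less than the other myotube replicates. Among the D cyclins, Ccnd1 was at 274 ± 23.6 CPM (SD, n = 3) and then 47.2 ± 12.5 CPM (log2 fold change -2.53 ± 0.20, adjusted p = 2.26e-08), whereas Ccnd3, the D cyclin of differentiated muscle, was at 353, 269.7 and 346 CPM and then 930.1, 822 and 761 CPM (log2 fold change 1.38 ± 0.11, adjusted p = 3.22e-09). The 2 D cyclins thus moved in opposite directions. The retinoblastoma gene Rb1, needed for permanent exit, rose by 1.41, or by 1.12 without myotube replicate C.

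Chromatin regulators fell more often than they rose. Of 41 Polycomb and chromatin genes, 5 were higher, 26 lower and 10 not called (median log2 fold change -0.46). The high mobility group gene Hmga1 fell by 6.55-fold, the maintenance methyltransferase gene Dnmt1 by 2.86-fold and Ezh2, the Polycomb methyltransferase of dividing cells, from 59.8 ± 11.3 to 21.5 ± 3.06 CPM (log2 fold change -1.47 ± 0.15, adjusted p = 1.52e-07). Its counterpart in nondividing cells, Ezh1, was at 65.1, 56.1 and 64.3 CPM and then 69.4, 71.5 and 67.4 CPM and was not called (log2 fold change 0.17 ± 0.074, adjusted p = 0.0562). It was called higher without myotube replicate C (0.23, adjusted p = 0.0225) and without myoblast replicate A (0.21, adjusted p = 0.0411). Tet2, a methylcytosine dioxygenase gene, was called higher (0.68, adjusted p = 0.0185), a call that was lost without myotube replicate C (0.42, adjusted p = 0.0723), without myoblast replicate A (0.50, adjusted p = 0.0873) and with only the groups compared (adjusted p = 0.0692).

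In the Dlk1-Dio3 domain the noncoding RNAs Meg3 and Rian fell slightly. Meg3, with the values given above, fell by 1.44-fold (log2 fold change -0.52 ± 0.15, adjusted p = 0.0181). The fall of Meg3 missed the threshold without myoblast replicate B (-0.43, adjusted p = 0.0673) and without myoblast replicate C (-0.47, adjusted p = 0.0656). Rian, another noncoding RNA of the domain, was at 201, 247 and 219.6 CPM and then 122, 139 and 184 CPM (log2 fold change -0.59 ± 0.14, adjusted p = 0.00263). Mirg, a microRNA host at the end of the domain, was at 10.2, 11 and 11 CPM and then 10.6, 10.5 and 9.96 CPM, overlapping and not called (log2 fold change -0.052 ± 0.12, adjusted p = 0.733). Rtl1, the protein-coding gene of the domain on the opposite strand, was at 0.0599, 0.108 and 0.0462 CPM and then 0.0594, 0.0375 and 0.0278 CPM, a few counts in each library, and was not called (adjusted p = 0.314). Whether the counting used strand is not given in the sources used here, so reads of Rtl1 and of RNA from the other strand cannot be told apart. Dlk1 and Dio3 had too few counts to be tested. Of 21 imprinted genes tested of 25 listed, 8 were higher, 8 lower and 5 not called.

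Within the insulin-like growth factor (IGF) pathway, both ligand genes rose and the binding protein genes split. Igf2, the fetal ligand whose gene lies beside H19, was at 1.38, 1.88 and 1.83 CPM in myoblasts and 16.6, 18.7 and 18.7 CPM in myotubes (log2 fold change 3.41 ± 0.15, adjusted p = 1.01e-12). Igf1 was within a few counts of 0 in myoblasts and at 1.6, 1.15 and 3.13 CPM in myotubes. Of the binding proteins, which hold the ligands outside the cell, Igfbp5 was at 5562, 5281 and 5704 CPM and then 2563, 2341 and 2613 CPM (log2 fold change -1.14 ± 0.066, adjusted p = 3.52e-11). Igfbp2 was at 2386, 1929.8 and 2295 CPM and then 127, 117 and 98.1 CPM (log2 fold change -4.27 ± 0.14, adjusted p = 3.39e-14), so it lost nearly all of a high level. Igfbp4 and Igfbp3 rose by 2.16 and 1.06 on the log2 scale. The receptor gene Igf1r fell by 1.45-fold, and the kinase gene Akt2, acting downstream of it, rose by 1.02. In all, 9 of 21 pathway genes tested were higher, 9 lower and 3 not called (median -0.159).

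Other signalling lists were mixed. Of 37 genes of TGF-beta, activin and BMP signalling, 8 were higher and 16 lower (median log2 fold change -0.102), against 29.8% and 33.0% of all genes tested. Follistatin, Fst, which traps activin and myostatin, was at 4.13, 4.14 and 6.12 CPM and then 145, 146 and 175 CPM (log2 fold change 5.02 ± 0.13, adjusted p = 1.42e-15), while Ltbp2, a latent TGF-beta binding protein gene, fell by 8.23-fold. Myostatin, Mstn, an inhibitor of muscle growth, was at 0.0599, 0.0647 and 0.300 CPM and then 0.0594, 0.0250 and 0.0972 CPM and was not called (adjusted p = 0.156). Of 37 Wnt pathway genes, 12 were higher and 16 lower. Axin2, a target and inhibitor of the pathway, rose by 3.01, and the secreted inhibitor gene Sfrp1 fell by 9.26-fold. Of 19 Notch pathway genes, 4 were higher and 10 lower (median -0.301). Lfng, which modifies Notch receptors, fell by 9.81-fold, the receptor genes Notch1 and Notch2 by 1.9-fold and 4.13-fold, and Hes6, which promotes myogenesis, rose by 1.84.

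Matrix genes went both ways. Of 42 collagen and matrix genes, 17 were higher, 18 lower and 7 not called, with a median log2 fold change of 0.152. The median was 0.025 with genes at 3 counts or fewer in every library of a stage placed at their bound. Col1a1 (ENSMUSG00000001506, chromosome 11, 94936224 to 94953042), a chain of fibrillar collagen I, was at 10.4, 9.04 and 10.1 CPM and then 480.0, 303 and 402 CPM (log2 fold change 5.33 ± 0.21, adjusted p = 3.61e-12), while its partner chain Col1a2 fell by 1.25-fold, from 2718 ± 62 to 2174 ± 341 CPM. The 2 chains of 1 collagen therefore moved in opposite directions, though the fall of Col1a2 was small. Its log2 fold change was -0.18 without myotube replicate C (adjusted p = 0.0395). It was not called with only the groups compared and a block for replicate letter (-0.33, adjusted p = 0.0601). The proteoglycan gene Bgn was at 12.3, 9.73 and 13.6 CPM and then 754, 439.7 and 611 CPM (log2 fold change 5.67 ± 0.17, adjusted p = 3.55e-14). Of collagen VI, Col6a1 and Col6a2 rose by 2.33 and 3.47 and Col6a3 fell by 2.52-fold. Timp3, an inhibitor of matrix proteases, fell by 7.5-fold, and Vcan, a proteoglycan of proliferating cells, by 3.44-fold.

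Secreted signals fell more often than they rose: 14 of 28 tested were lower, 6 higher and 8 not called (median log2 fold change -0.643, or -0.491 with genes at their bound). Fgf21, a stress-induced hormone of muscle and liver, was at 1.08, 0.539 and 0.994 CPM and then 95, 94.7 and 80.9 CPM (log2 fold change 6.69 ± 0.21, adjusted p = 4.17e-14). The chemokine genes Cxcl5 and Cxcl1 fell by 32.8-fold and 22-fold. Il15, a muscle cytokine, rose by 2.71 and Fndc5, the irisin precursor, by 4.49 on the log2 scale. Of 23 proteolysis and autophagy genes, 9 were higher and 7 lower, against 29.8% and 33.0% of all genes tested. The ubiquitin ligase genes of muscle, Trim63 and Fbxo32, encoding MuRF1 and atrogin-1, rose by 6.64 and 1.37, and the calpain inhibitor gene Cast fell by 2.07-fold. Proteasome subunit genes rose by small amounts, 30 of 37 higher and 1 lower (median 0.41). Of 19 splicing and RNA regulators, 8 were higher and 4 lower. Rbfox1 and Rbm24, which direct muscle splicing, rose by 5.8 and 3.56, and Ptbp1, which represses muscle exons, fell by 2.59-fold. Without myotube replicate C, 8 of these 19 regulators were lower.

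Markers of other cell types were read as well, and those shared with smooth muscle rose. Of 9 smooth muscle markers, 8 were higher and 1 was not called (median log2 fold change 1.83), and their summed level was 4191, 3572 and 4283 CPM in myoblasts and 12570, 12360 and 10480 CPM in myotubes. Most of that sum came from Acta2, which skeletal myoblasts also express and which was at 1522, 1304 and 1574 CPM and then 5386, 5772 and 4473 CPM (log2 fold change 1.83 ± 0.096, adjusted p = 8.31e-12), and from Des. Myh11, the defining smooth muscle myosin, was at 0.0798, 0.0216 and 0 CPM and then 0.0297, 0.125 and 0.139 CPM and was not called (adjusted p = 0.174). Of 10 adipocyte markers, 4 were tested and all 4 were lower, with a sum of at most 41.4 CPM in any library. Fibroblast and fibro-adipogenic markers summed to 587.1, 462.2 and 588.1 CPM and then 43.27, 38.85 and 38.56 CPM, most of it the surface antigen gene Ly6a, which fell by 31.6-fold. Of the 10 listed, 7 were tested, with 4 lower and 3 higher. The 3 that rose were scarce: Col15a1, a basement membrane collagen gene, went from 0.116 ± 0.0316 to 2.19 ± 0.156 CPM, Pi16 from 0.796 ± 0.129 to 2.06 ± 0.789 CPM and Dpt from 0.0934 ± 0.0501 to 0.377 ± 0.0432 CPM (mean ± SD, n = 3). Of 10 endothelial and blood markers, 5 were tested and summed to at most 4.41 CPM, and of 9 neuron and Schwann cell markers, 6 were tested, with Tubb3 holding most of the sum. Of 11 osteoblast and chondrocyte markers, 8 were tested, with 1 higher, 3 lower and 4 not called. This list summed to 1997, 2308 and 1996 CPM in myoblasts and 983.5, 1388 and 1456 CPM in myotubes. The part of other cell types in the results was not tested.

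The same change was then compared with that of the control line, which asks whether the clone responded as vector-treated cells did. The test is of the difference between the 2 log2 fold changes. The response differed in 6977 genes (39.0%), more positive in the clone in 2981 (16.6%) and more negative in 3996 (22.3%). This split depends on the scaling. The median difference over all genes was -0.051 with TMM, 0.060 when DESeq2 factors were used and 0.140 when totals were used, and the share of more positive calls was 42.7%, 53.9% and 61.0% in turn. Without overexpressor myotube replicate C it was 51.6%. Of the 2592 genes that rose by at least 2-fold in the clone, 1844 were called higher in the control line too, 156 were called lower there and 592 were not called there. Of the 2504 that fell by at least 2-fold, 1842 were called lower there, 205 higher and 457 not called. The share of all genes called each way in the control line is not given here. These overlaps are therefore counts without a background.

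Sarcomere lists had high medians in both lines, and cell cycle genes fell less in the clone. The medians of the thick and thin filament lists were 7.07 and 5.58 in the clone and 5.98 and 5.25 in the control line. The response was more positive in the clone in 9 of 26 thick and 10 of 20 thin filament genes. It was more negative in 4 and 2 of them. The Z-disc list went the other way, with medians of 3.47 in the clone and 4.03 in the control line. Of its 33 genes, the response was more positive in the clone in 6 and more negative in 10. Of 43 DNA replication genes, the response was more positive in the clone in 32 and more negative in 2 (median difference 1.01), and of 40 mitosis genes in 30 and 0 (median difference 0.867). The list medians were -1.88 and -2.70 in the clone and -2.66 and -3.61 in the control line, so both lines lost these transcripts and the control line lost more. Uhrf1, which couples methylation to replication, changed by -2.6 in the clone and by -5.02 in the control line on the log2 scale (difference 2.42 ± 0.18, adjusted p = 1.01e-08). Mcm5 changed by -2.43 and -4.34 (difference 1.91 ± 0.27, adjusted p = 4.41e-05) and Cdk1 by -2.58 and -3.41 (difference 0.83 ± 0.14, adjusted p = 0.000145).

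The stress response and cholesterol lists, which moved in the control line, had medians nearer 0 in the clone, with members called in both directions. Genes of the integrated stress response (ISR), which the factor ATF4 switches on when amino acids or protein folding fail, had a median of 1.60 in the control line and 0.255 in the clone, or 0.0382 with genes at their bound. In the clone 14 of these 30 genes were higher, 7 of them by at least 2-fold, and 9 were lower. The response was more negative in the clone in 19 and more positive in 3 (median difference -1.11). Trib3, an ATF4 target, was at 5.91, 5.2 and 4.97 CPM and then 12.3, 15 and 11 CPM in the clone, against 4.35 ± 0.361 and then 333 ± 29.6 CPM (SD, n = 3) in the control line (difference of log2 fold changes -5.0 ± 0.20, adjusted p = 4.03e-12). Ddit3, encoding CHOP, was not called in the clone (-0.19, adjusted p = 0.144) and changed by 3.75 in the control line (difference -3.94 ± 0.16, adjusted p = 2.55e-12). In the clone it was called lower without myotube replicate B (-0.37, adjusted p = 0.00186). Asns, asparagine synthetase, changed by 1.1 and 3.08 and Atf4 itself by 0.65 and 2.01. The cytosolic aminoacyl-tRNA synthetase genes, many of them ATF4 targets, had medians of 0.488 and 1.53, with the response more negative in the clone in 14 of 17 and more positive in 0. Of 23 cholesterol synthesis genes, driven by SREBP2, 5 were higher and 9 lower in the clone. Their medians were -0.0841 in the clone and -0.82 in the control line, with the response more positive in the clone in 21 of 23 and more negative in 0.

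**Figure D5:**
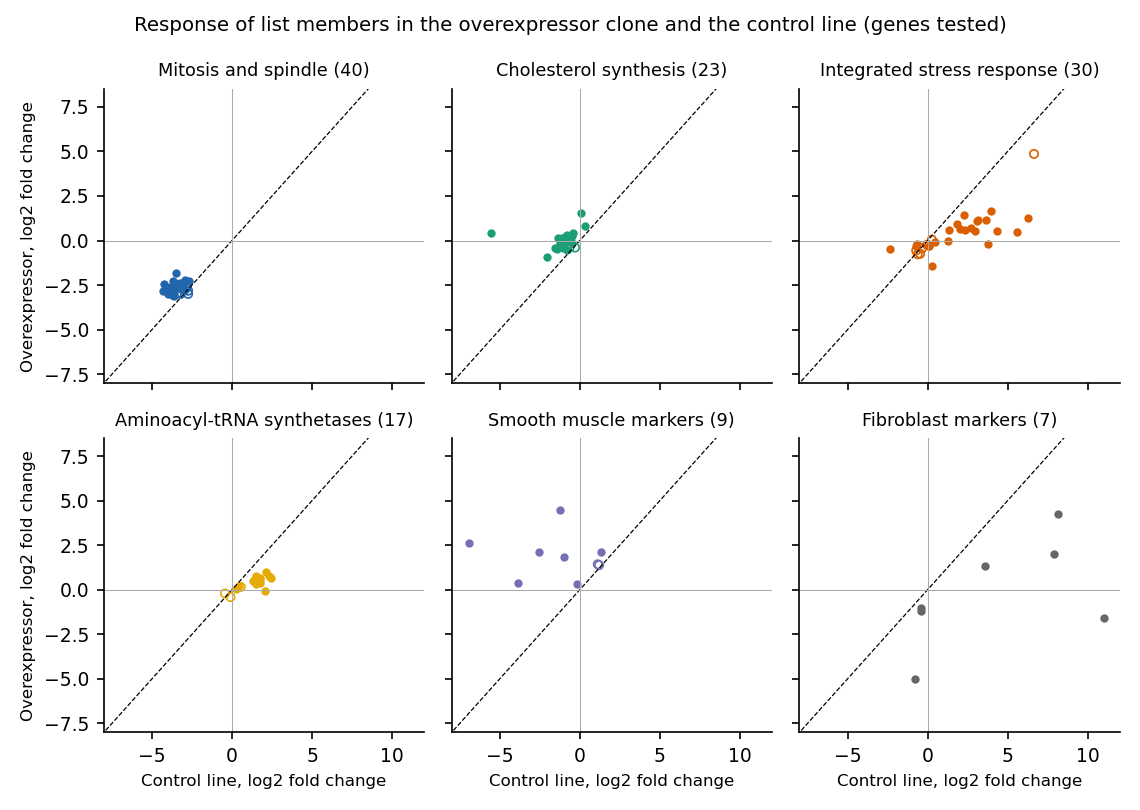
Each panel plots, for 1 gene list, the log2 fold change of each member in the overexpressor clone against that in the control line, with a dashed line of equality. Filled points are members whose response differed between the lines at an adjusted p under 0.05. All 14 filled synthetase points, all 7 fibroblast points and 19 of the 22 filled stress response points lie below the line, and all filled mitosis, cholesterol and smooth muscle points lie above it.

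Several matrix and secreted genes changed in opposite directions in the clone and the control line. Igfbp5 fell in the clone and went from 736 ± 13.7 to 2191 ± 153 CPM in the control line (difference -2.71 ± 0.094, adjusted p = 3.31e-13). Fn1 fell in the clone and went from 5626 ± 449 to 24790.0 ± 1234 CPM in the control line (difference -3.12 ± 0.11, adjusted p = 5.97e-13), and Timp3 changed by -2.91 and 3.11 (difference -6.01 ± 0.19, adjusted p = 2.74e-13). Of the 42 matrix genes the response was more negative in the clone in 23 and more positive in 9. Smooth muscle markers went the other way: 7 of 9 were more positive in the clone and 0 more negative. Acta2 rose in the clone and went from 3847 ± 57.6 to 1919 ± 176 CPM in the control line (difference 2.83 ± 0.13, adjusted p = 1.47e-11). Tagln, an actin-bundling protein gene, changed by 2.12 and -2.54 (difference 4.66 ± 0.18, adjusted p = 1.91e-12). All 7 fibroblast markers tested were more negative in the clone, with list medians of -1.05 and 3.61. The ferritin receptor gene Scara5 was at 1.32, 1.16 and 1.27 CPM and then 0.327, 0.438 and 0.486 CPM in the clone, and at 0.127 and then 269.8 CPM in the control line (difference -12.61 ± 0.33, adjusted p = 1.36e-14).

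Myog and Myf6 responded differently in the clone and the control line. Myog rose from 105 ± 18.6 to 1732 ± 59.6 CPM in the control line, by 4.04 on the log2 scale, more than in the clone (difference -1.4 ± 0.19, adjusted p = 1.95e-05). The final Myog levels were 1855 CPM on average in the clone and 1732 CPM in the control line, and the myoblast levels were further apart (297 and 105 CPM). Myf6, which was not called in the clone, went from 0.185 ± 0.0279 to 2.54 ± 0.327 CPM in the control line (difference -4.03 ± 0.32, adjusted p = 1.2e-08).

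Against the line labelled knockout, the response differed in 8370 genes (46.7%), more positive in the overexpressor in 4353 (24.3%) and more negative in 4017 (22.4%). The share more positive was 52.0%, and 61.9% with library totals. The sarcomere lists rose much further in the overexpressor: the response was more positive in 21 of 26 thick filament genes and more negative in 1, in 17 and 3 of 20 thin filament genes and in 26 and 1 of 33 Z-disc genes, with median differences of 4.17, 3.69 and 2.10. The starting levels differed strongly here, and the line labelled knockout already held sarcomere transcripts as myoblasts. Myh3 was at 42.5 CPM on average in overexpressor myoblasts and at 3202 ± 459 CPM (SD, n = 3) in myoblasts labelled knockout, and its myotube levels were 6100.0 and 7466 ± 188 CPM (difference of log2 fold changes 5.94 ± 0.29, adjusted p = 5.79e-10). Acta1 averaged 139.5 and then 8589 CPM in the overexpressor, 4254 and then 15720.0 CPM in the line labelled knockout and 76.8 and then 5337 CPM in the control line. The myotube levels of these genes were thus closer together than their fold changes. Mymk changed by 4.32 in the overexpressor and by 1.32 in the line labelled knockout (difference 3.0 ± 0.24, adjusted p = 1.02e-07). Adam8, a membrane protease gene, was at 80.6, 75.4 and 83 CPM and then 3.83, 4.08 and 4.04 CPM in the overexpressor, and at 4.01 and then 16.9 CPM in the other line (difference -6.39 ± 0.12, adjusted p = 2.41e-16). Mitosis genes were more negative in the overexpressor in 22 of 40 and more positive in 0, and stress response genes more positive in 16 of 30 and more negative in 0.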

How the data were processed

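Polyadenylated RNA of C2C12 cells, isolated with TRIzol per the labels, was sequenced in 18 libraries, 3 for each of 6 groups. The deposited values are raw counts of reads per gene. Reads were mapped to mm10 with STAR 2.7.9a and counted with featureCounts of Subread 2.0.3, per the submitters' processing notes, which also name FastQC 0.11.7 and DESeq2 1.32.0. Strand use and annotation release are not given in the sources used here. A deposited table of transformed values was not used.

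Of 55450 gene IDs, 55190 matched GENCODE vM21 (GRCm38), and the other 260 held 0.00589% of the counts. Genes were filtered with filterByExpr by group, leaving 17912 genes with 99.973% or more of every library's counts. Counts of all 18 libraries were scaled by TMM and fitted in 1 model with 6 group terms (12 residual degrees of freedom) by edgeR 4.0.16's robust quasi-likelihood test in R 4.3.3 (limma 3.58.1), with Benjamini-Hochberg adjustment over all genes tested. Contrasts were overexpressor myotubes against overexpressor myoblasts, and that change minus the same change in each other line. Totals were 41544358 to 79140702 counts in the 6 libraries. A level of 3 counts corresponds to 0.0375 to 0.0693 CPM in them. It was used as the floor for folds against groups at or below it in every library, which include those at 0 counts. In list medians at the bound, genes at or below this floor in both stages were set to 0.

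Gene lists (34) and families (20) and the members described were chosen with earlier results of these data known. The genes named in the text were taken from the 6 of the Dlk1-Dio3 domain, the 10 highest and 10 lowest by fold with at least 5 CPM, the 10 with the largest change of CPM each way, the extremes and most abundant member of each list, the extremes of each difference of response and a set of muscle and cell cycle genes, not all of which are printed. Other genes named were chosen after their values were seen. Promoter sequences and motif searches used RefSeq's table for GRCm38.p6. Alternatives tried were DESeq2 1.42.0's size factors and Wald test, library totals, no filter, a test against a 2-fold change, only the groups compared, thinned counts, a block for replicate letter and leaving out each replicate.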

Additional observations from a re-analysis of the deposited data

Results flagged for a closer look

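The change on differentiation differed between the overexpressor clone and another line in the genes below, by the test of the difference itself (edgeR's quasi-likelihood test, differences of log2 fold changes ± SE with adjusted p). The lines differ in clone as well as in genotype, and these cannot be told apart. Groups of 3 libraries are too small for the test of a single outlying value, so no gene was put through it.

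Differences from the control line went both ways. Scara5 differed by -12.61 ± 0.33 (adjusted p = 1.36e-14). Atp2a3, a calcium pump gene of nonmuscle cells, was at 4.33, 4.31 and 4.97 CPM and then 1.01, 0.913 and 0.708 CPM in the clone and at 1.25 and then 76.8 CPM on average in the control line, a difference of -8.3 ± 0.27 (adjusted p = 1.59e-13). Cdsn, corneodesmosin, an adhesion protein gene of skin, was at 10.2, 10.9 and 11 CPM and then 2.67, 3.09 and 2.06 CPM in the clone and at 6.91 and then 433 CPM in the control line, a difference of -8.0 ± 0.21 (adjusted p = 2.44e-14). Both genes fell in every myotube library of the clone. Avil, an actin-severing protein gene, was at 0.140, 0.431 and 0.300 CPM and then 0.252, 0.313 and 0.347 CPM in the clone and at 0.383 and then 73.2 CPM in the control line, a difference of -7.48 ± 0.53 (adjusted p = 5.14e-09).

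Timp3 differed by -6.01, Fn1 by -3.12 and Igfbp5 by -2.71 on the log2 scale. The stress genes Trib3 and Ddit3 differed by -5.0 and -3.94, and the myogenic factor genes Myf6 and Myog by -4.03 and -1.4. Differences in the other direction were those of Mcm5 (1.91), Uhrf1 (2.42), Cdk1 (0.83), Acta2 (2.83) and Tagln (4.66). Lmod1, which nucleates actin in smooth muscle, was at 0.818, 0.518 and 0.693 CPM and then 16, 14.1 and 14.4 CPM in the clone and at 22.3 and then 9.39 CPM in the control line, a difference of 5.69 ± 0.15 (adjusted p = 1.36e-14). Cnn1, a calponin gene of smooth muscle, was at 0.379, 0.582 and 1.04 CPM and then 5.93, 1.38 and 5.06 CPM in the clone, with replicate B low, and at 29.3 and then 0.248 CPM in the control line, a difference of 9.53 ± 0.69 (adjusted p = 4.58e-08).

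Against the line labelled knockout, Myh3 differed by 5.94 and Mymk by 3.0, and Adam8 by -6.39. Ddit4l, a regulator of mTOR signalling, was at 2.1, 1.85 and 1.94 CPM and then 1.25, 1.25 and 1.18 CPM in the overexpressor and at 0.0394 and then 14.7 CPM on average in the other line, a difference of -9.18 ± 0.30 (adjusted p = 5.66e-13). The mean of 0.0394 CPM lay below the level of 3 counts in those myoblast libraries (0.0534 to 0.0645 CPM). The size of the Ddit4l difference is therefore uncertain. Shank2, a synaptic scaffold gene, was at 9.8, 11.5 and 10 CPM and then 0.297, 0.300 and 0.306 CPM in the overexpressor and at 0.960 and then 0.904 CPM in the other line, a difference of -5.03 ± 0.31 (adjusted p = 8.96e-10).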

How the results depend on the processing

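The number of genes called depended most on the size of change tested. Against a 2-fold change, edgeR called 3412 genes on differentiation (1776 higher, 1636 lower), 1475 for the difference from the control line (706 more positive, 769 more negative) and 1162 for the difference from the line labelled knockout (782 and 380). Leaving out 1 replicate at a time gave 10555 to 11270 genes on differentiation (4985 to 5378 higher, 5570 to 5892 lower), 6383 to 7222 for the difference from the control line (2710 to 3730 more positive, 3492 to 4014 more negative) and 7099 to 8885 for that from the line labelled knockout (3598 to 4788 and 3359 to 4263). With DESeq2 size factors, library totals, no filter, the DESeq2 Wald test, thinned counts and only the groups compared, the counts stayed within 1.5 times of those reported. Over the alternative runs as a set, 949 of 1020 counts of list members stayed within 1.5 times of those reported and 71 did not.

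The replicate letters did not pair the samples: deviations of same-letter myoblast and myotube libraries correlated at 0.248 for A, -0.128 for B and -0.0808 for C, and not every library correlated best with its own letter. With the replicate block, 10919 genes were called on differentiation, 6598 for the difference from the control line and 7720 for that from the line labelled knockout.

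Of 163 changes or differences of single genes, 124 kept direction and side of the threshold in every alternative run. Only Mirg, not called in any of them, changed sign: it was at 0.033 with DESeq2 size factors and with the DESeq2 Wald test and at -0.084 to 0.021 over the fits that left out 1 replicate, the highest without myotube replicate C, and the cause was not tested. Depth limits the genes near 3 counts in a library, such as Chrne, Dmd and Rtl1, whose folds are not given.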

Other observations

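Gene families outside the lists above were called higher and lower in different shares. Of all genes tested, 29.8% were higher and 33.0% lower. Of 78 mitochondrial ribosomal protein genes, 52 were higher in overexpressor myotubes and 6 lower (median log2 fold change 0.302), against 32 and 4 of 77 cytosolic ribosomal protein genes (median 0.156). Over the alternative fits other than the test against a 2-fold change, 37 to 56 mitochondrial and 23 to 39 cytosolic genes were called higher. Of 17 ephrin and Eph receptor genes tested, which guide cell contacts, 10 were lower and 4 higher (median -1.02), and of 25 Hox genes tested, 13 were lower and 5 higher (median -0.527). Of 27 integrin genes tested, 13 were higher and 6 lower (median 1.07). Of 27 Fox factor genes tested, 15 were lower and 4 higher (median -0.477).

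The following genes were nearly silent in the 3 overexpressor myoblast libraries and in myotube replicate B and were expressed in myotube replicates A and C. St8sia2, a polysialyltransferase gene, had 81, 0 and 51 counts in myotube replicates A, B and C. Cdh11, a cadherin gene, had 72, 0 and 108 counts, and Bhlhb9 had 132, 0 and 183 counts. None of these genes was above 3 counts in an overexpressor myoblast library. They were expressed in control myoblasts, at means of 24.5, 9.67 and 34.1 CPM. The same search gave 0 genes that were low in replicate A alone and 0 that were low in C alone. The same replicate B was the low one for Cdkn1c and Cnn1. The cause was not tested.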
